A study of Mus musculus with 6 samples.

Results

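The nuclear genes for the subunits of respiratory complex I were compared between quadriceps muscle of HSALR and wild-type (WT) mice. The genes were taken by name: protein coding genes of the GENCODE mouse annotation whose symbols begin with Nduf, then one of the letters a, b, c, s or v and a digit, with a mean expected count of at least 10 over the 6 libraries. Of 53947 genes in the files 39 had such a symbol, and 38 were kept. The remaining candidate, Ndufb11b, had no count in any library, which allows up to 3 counts per library, or between 0.2 and 0.262 CPM (counts scaled to library size). This limit uses each library's total counts, without the scaling factors applied to the other CPM values. All 38 genes also passed the filter on low counts that left 13576 genes for testing.

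The HSALR line models myotonic dystrophy type 1: its transgene, a human skeletal actin gene, holds an expansion of about 220 CTG repeats. The actin promoter directs the repeat RNA to skeletal muscle, where it binds MBNL splicing factors. The WT mice carry no such transgene, and both groups were 12 weeks old. Total RNA was sequenced from 3 samples per group. Strain, sex and litter are not given in the labels, nor whether each sample came from its own animal, so p-values here measure the spread between these samples. Quadriceps is a mixture of fibres and other cells, and fewer cells of a type cannot be told apart from less RNA per cell.

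Complex I (NADH:ubiquinone oxidoreductase) oxidises NADH, passes the electrons through a flavin and a chain of iron-sulphur clusters to ubiquinone and pumps protons across the inner mitochondrial membrane. It is L-shaped, with a matrix arm that holds the electron carriers and a membrane arm that holds the pumps. The core subunits of the matrix arm are encoded in the nucleus, those of the membrane arm in mitochondrial DNA (the mt-Nd genes), and around both sits a shell of small accessory subunits, all of them nuclear. Skeletal muscle, above all its oxidative fibres, is rich in mitochondria, and complex I is the main entry point for electrons there.

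The 38 genes were sorted by the place of their product: 7 core matrix-arm subunits, 9 accessory matrix-arm subunits, 9 accessory subunits of the proximal membrane arm and 11 of the distal membrane arm. The last 2, Ndufa4 and Ndufa4l2, bear the name but are not complex I subunits: Ndufa4 is counted with cytochrome c oxidase, and Ndufa4l2 is its paralogue. Most of the accessory proteins are very small, which gives short transcripts, and transcript lengths are given beside the changes below. The coding sequences of 3 small membrane-arm members show this scale. They are printed from the canonical GENCODE transcripts (GRCm39), with the start codon in capitals and, where the whole sequence is shown, the stop codon too. Ndufb3 is shown because it passed the test, and only its first 300 of 315 bases are given. Ndufb1 and Ndufa1 are the shortest coding sequences among the subunits, at 174 and 213 bases with the stop codon. Ndufb3 lies at chr1:58625541-58636536, plus strand, Ndufb1 at chr12:101934343-101943331, minus strand, and Ndufa1 at chrX:36451241-36454849, minus strand. Each of the 3 transcripts has 3 exons.
Ndufb3: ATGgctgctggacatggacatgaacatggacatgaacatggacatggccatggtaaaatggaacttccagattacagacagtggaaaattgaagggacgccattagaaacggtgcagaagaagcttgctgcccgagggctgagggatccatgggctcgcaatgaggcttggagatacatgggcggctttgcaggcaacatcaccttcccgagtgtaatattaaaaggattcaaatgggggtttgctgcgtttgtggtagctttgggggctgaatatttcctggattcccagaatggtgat
Ndufb1: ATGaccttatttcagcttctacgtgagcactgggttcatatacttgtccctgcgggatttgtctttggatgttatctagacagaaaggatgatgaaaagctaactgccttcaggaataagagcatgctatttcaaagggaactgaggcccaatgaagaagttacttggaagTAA
Ndufa1: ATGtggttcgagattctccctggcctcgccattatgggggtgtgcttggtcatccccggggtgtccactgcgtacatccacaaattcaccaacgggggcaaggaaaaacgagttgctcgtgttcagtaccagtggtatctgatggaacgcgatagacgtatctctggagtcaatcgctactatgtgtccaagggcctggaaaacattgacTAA

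The libraries differed in make-up before any gene of complex I was considered. They held between 11468959 and 13220792 counts in HSALR and between 14048603 and 15023710 in WT. The abundant small RNAs 7SL and 7SK took 43.9%, 18.8% and 24.0% of the counts in HSALR libraries 1, 2 and 3, against 14.2%, 14.1% and 15.5% in WT libraries 1, 2 and 3, so HSALR library 1 stood apart. Skeletal muscle markers were abundant throughout (all 8 of 8 tested, summed 93369 to 194363 CPM in HSALR and 239658 to 275540 CPM in WT), and none of the 8 was called. Of 6 macrophage markers 3 were called higher in HSALR, with a summed level of 151 to 488 CPM in HSALR and 101 to 124 CPM in WT. Of 9 slow and oxidative fibre markers none was called. Their summed level, mostly Mb and Myh2, varied from 3645 to 6156 CPM in HSALR and from 2747 to 6450.1 CPM in WT. Each of the 9 was highest within its group in HSALR library 1 and in WT library 2. In libraries 1, 2 and 3, Myh7 had 301.8, 65.19 and 24.51 CPM in HSALR, against 14.99, 519.8 and 5.205 CPM in WT. Only Mb had every HSALR library above every WT library, at 2762 to 3205 CPM against 1803 to 2234 CPM (edgeR adjusted p = 0.0695). Of 5 fibroblast markers 1 (Col3a1) was called higher, with a summed level of 1488 to 4645 CPM in HSALR and 1175 to 1327 CPM in WT. No blood (5 tested), endothelial (5), fat (4) or satellite cell (1) marker was called. Fat markers varied widely within both groups, with summed levels of 11.2, 49.8 and 530 CPM in HSALR libraries 1, 2 and 3, against 3.11, 36.3 and 137 CPM in WT libraries 1, 2 and 3, and Ucp1 of brown fat stood at 162 CPM in HSALR library 3 but at 0 in HSALR library 1 and WT libraries 1 and 2. The part of these differences in the results below was not tested.

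Levels of different genes were set side by side as TPM, the authors' counts per length. Apart from Ndufa4l2 they lay between 58.4 and 648 TPM in HSALR and between 68.7 and 721 TPM in WT (means of 3 libraries), and the median of all 38 was 141 TPM in HSALR and 174 TPM in WT. Ndufa4, the cytochrome c oxidase component, was the most abundant at 648 ± 138 TPM in HSALR and 721 ± 16.6 TPM in WT (SD, n = 3 each). Ndufa4l2, which is known as a hypoxia-induced gene, was the lowest at 1.24 ± 0.195 TPM in HSALR and 2.3 ± 0.365 TPM in WT, far below its neighbour in that order.

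**Figure D1:**
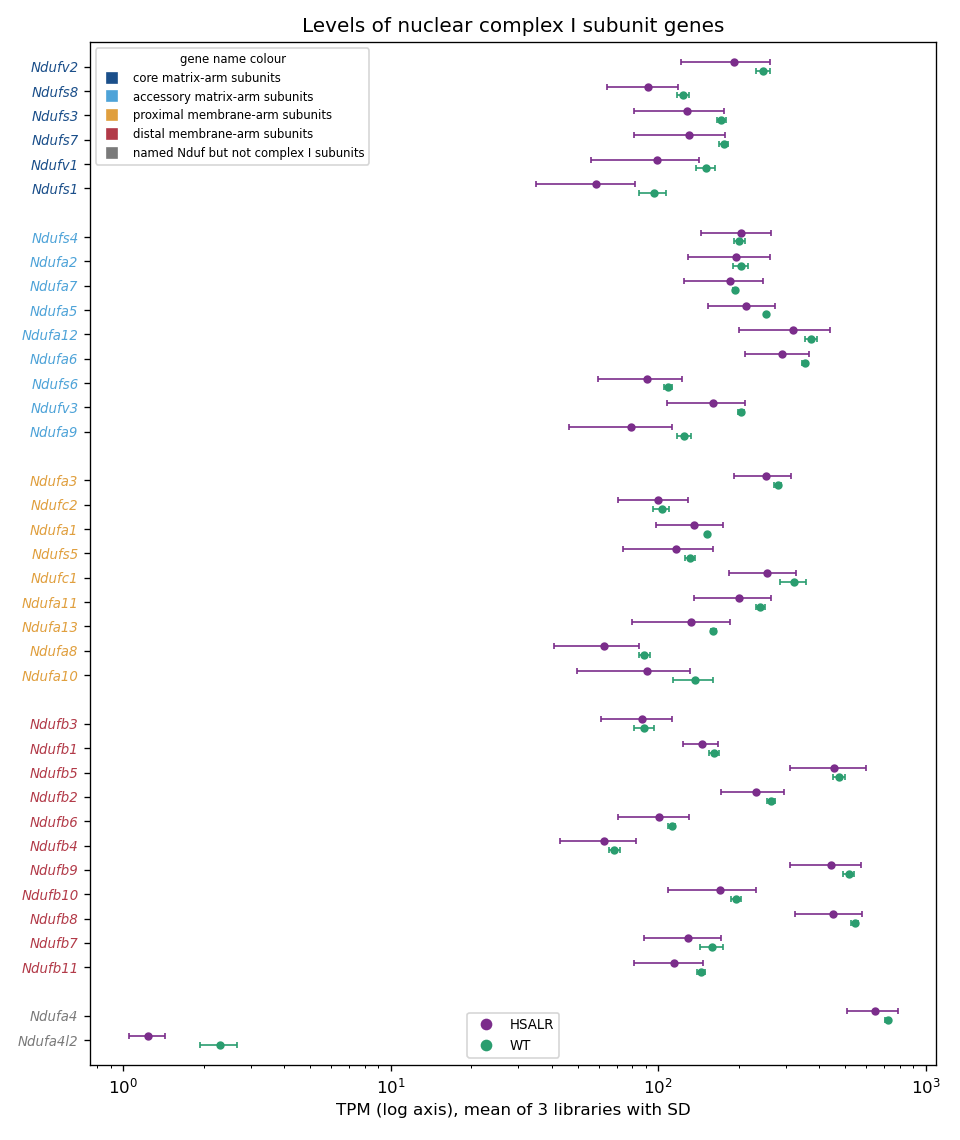
Level of each member in TPM (log axis; mean with SD of 3 HSALR and 3 WT libraries), grouped by place in complex I, with 1 core member not drawn. Ndufb8, Ndufb9 and Ndufb5 lead the subunits, Ndufa4 lies above them and Ndufa4l2 near 1 to 2 TPM; TPM values are scaled to a fixed sum that includes 7SL and 7SK.

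Among true subunits the distal membrane arm held the 3 most abundant transcripts. Its median of 146 TPM in HSALR and 162 TPM in WT lay below that of the accessory matrix-arm subunits (196 TPM in HSALR and 203 TPM in WT). Ndufb8, a subunit whose protein level is widely used as a readout of assembled complex I, reached 452 ± 127 TPM in HSALR and 544 ± 16.2 TPM in WT, Ndufb9 441 ± 129.7 TPM in HSALR and 515 ± 25.7 TPM in WT and Ndufb5 455 ± 143 TPM in HSALR and 475 ± 23.5 TPM in WT. In HSALR library 1 these 3 stood at 308, 295 and 296 TPM, below all their other libraries, which widens their HSALR SDs. Such SDs do not measure differences between genes within a library, and Ndufb8 lay above Ndufb9 in every library. In the same arm Ndufb4 was lowest, at 62.96 ± 19.9 TPM in HSALR and 68.7 ± 3.1 TPM in WT. Of the core subunits Ndufs1 was the lowest, at 58.4 ± 23.4 TPM in HSALR and 96.3 ± 11.2 TPM in WT. The order of the members by TPM was nearly the same in both groups (Spearman 0.97 over 38 genes, a description across genes that share their libraries; 0.99 between WT libraries 1 and 2).

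Changes between the groups were tested on the counts with edgeR's quasi-likelihood test and a Benjamini-Hochberg adjustment over all 13576 genes. Differences were small, and most estimates were positive. Of the 38 members 2 were called higher in HSALR at an adjusted p below 0.05, Ndufb3 and Ndufa2, and none was called lower. Over all genes tested 11.8% were called, 4.28% higher and 7.48% lower, so the members' share of calls was near the background. At an unadjusted p below 0.05, 12 members were higher and none was lower, where all genes gave 15.8% higher and 16% lower. DESeq2 called 8 members higher and none lower (Ndufb3, Ndufa2, Ndufs4, Ndufa7, Ndufa3, Ndufc2, Ndufb5 and Ndufb6), where it called 17.9% of all genes, with 8.58% called higher and the rest lower. Calls below are those of edgeR unless DESeq2 is named.

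The log2 fold change (HSALR over WT) was positive for 31 of 38 members, against 52.9% of all genes tested, although it was negative for all 38 when log2(TPM + 0.1) was used, where the median of all tested genes was -0.46. The members' median was 0.26 on the counts and the median over all tested genes was 0.04. In 26 members every HSALR library lay above every WT library, and in none did every HSALR library lie below, where all genes gave 17.8% above and 20% below. Summed over the members, the counts came to 9345, 8943 and 8753 CPM in HSALR libraries 1, 2 and 3, against 7966, 7957 and 7976 CPM in WT libraries 1, 2 and 3. The sums did not overlap, and the 3 WT sums were nearly equal.

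**Figure D2:**
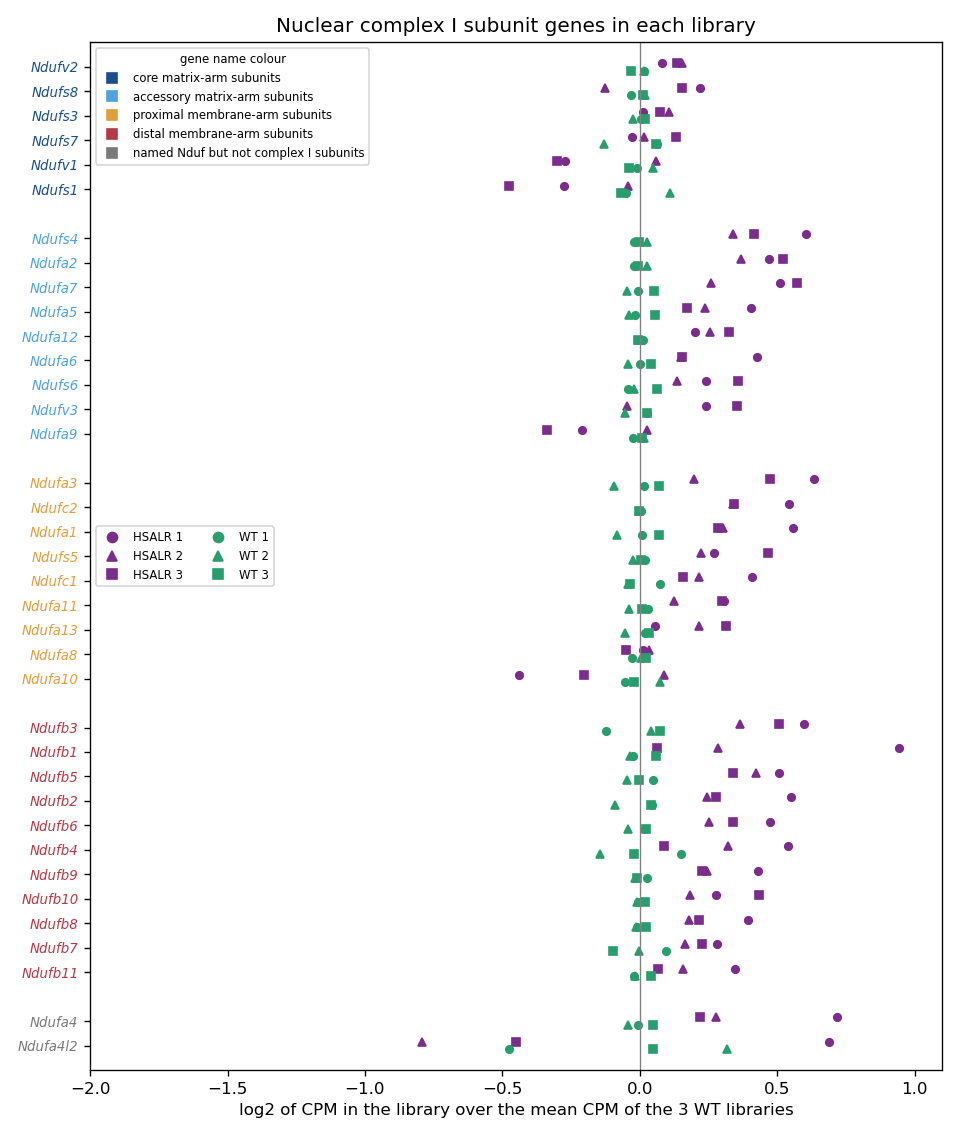
CPM of each member in each library, as log2 over the mean of the 3 WT libraries, for HSALR and WT libraries 1 to 3; 1 core member is not drawn. Most HSALR points lie right of the WT points, above all in the distal membrane arm, while Ndufs1, Ndufa9, Ndufa10 and Ndufv1 lie mostly left. On log2(TPM + 0.1) all 38 fitted changes are negative, where the median of all tested genes is -0.46.

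The 2 called members sit in different arms. Ndufb3, a small single-span subunit of the distal membrane arm whose human counterpart is mutated in complex I deficiency, had 134, 114 and 126 CPM in HSALR libraries 1, 2 and 3, against 81.2, 91.1 and 93.02 CPM in WT libraries 1, 2 and 3. All 3 HSALR values lay above the WT values, and the log2 fold change was 0.49 ± 0.13 (SE), edgeR adjusted p = 0.0447, with a transcript length of 763 bases. Ndufa2, a matrix-arm subunit with a thioredoxin-like fold, had 191, 178 and 198 CPM in HSALR libraries 1, 2 and 3, against 136, 141 and 137 CPM in WT libraries 1, 2 and 3. These groups were also separate, with a log2 fold change of 0.46 ± 0.13 (SE), edgeR adjusted p = 0.0485, at 572 bases. Both lie close to the threshold, and neither was called without HSALR library 3, without any one of the WT libraries or with the length trend removed. On log2(TPM + 0.1) the changes were -0.077 for Ndufb3 and -0.12 for Ndufa2, where the median of all tested genes was -0.46.

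The core matrix-arm subunits, which carry the flavin and the iron-sulphur clusters, had the lowest median of the 4 places. None of the 7 was called by edgeR, limma-voom or DESeq2, none had an unadjusted p below 0.05 with edgeR, 4 were positive and 3 negative, and their median was 0.042. Ndufv2, a flavoprotein subunit with an iron-sulphur cluster, had 377, 397 and 391 CPM in HSALR, against 360.4, 360.3 and 348 CPM in WT. It was the only core gene whose groups were separate, with a log2 fold change of 0.12 ± 0.13 (SE) and edgeR adjusted p = 0.556 at 1029.6 bases. Ndufs1, the largest core subunit, with 2519 bases the longest transcript of the 38, averaged 318 ± 48.01 CPM in HSALR and 379 ± 26.2 CPM in WT (SD, n = 3 each). Ndufv1, which binds NADH and FMN, averaged 331 ± 47.9 CPM in HSALR and 371 ± 11.4 CPM in WT at 1627 bases. For both the fitted change was negative but not called (-0.25 ± 0.16 (SE) and -0.16 ± 0.15 (SE)). Ndufs3, Ndufs7 and Ndufs8, the other carriers or supports of iron-sulphur clusters (758 to 1033 bases), had log2 fold changes between 0.042 and 0.09, none of them called.

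Accessory subunits of the matrix arm had mostly positive estimates. Of the 9, 1 was called higher (Ndufa2, above), 8 were positive, 7 were separate between groups, and the median was 0.26. Of all tested genes 17.8% were separate upward and 4.28% called higher, and of protein coding genes of 180 to 1181 bases 40.9% and 11.6%. Ndufs4, whose loss causes a Leigh-like encephalopathy in mice, had 257, 214 and 226 CPM in HSALR, against 167, 172 and 169 CPM in WT. The groups did not overlap and the estimate was of the size of the called genes (0.46 ± 0.14 (SE), 653 bases), but the adjusted p was 0.058 with edgeR. Ndufa12, the most abundant of the group by TPM, had 293, 305 and 320.4 CPM in HSALR, against 257, 255 and 254 CPM in WT (574 bases, log2 fold change 0.26 ± 0.13 (SE), edgeR adjusted p = 0.205). Its reads are shared with a processed pseudogene, and its counts are not whole in any library. Ndufa9, with 1371 bases the longest of this group, was the only one with a negative change, at 216, 255 and 198 CPM in HSALR, against 246, 253 and 252 CPM in WT (log2 fold change -0.17 ± 0.15 (SE), edgeR adjusted p = 0.455). The log2 fold change of Ndufa7 (528 bases) was 0.45 ± 0.14 (SE), edgeR adjusted p = 0.0614, and those of Ndufa5, Ndufa6, Ndufs6 and Ndufv3 (448 to 588 bases) lay between 0.19 and 0.27.

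In the proximal membrane arm none of the 9 was called by edgeR, although 4 were higher at an unadjusted p below 0.05 and DESeq2 called Ndufc2 and Ndufa3 (adjusted p = 0.0228 and 0.0394). Of the 9, 7 were positive and separate between groups, and the median was 0.27. The share separate upward was 17.8% of all tested genes and 40.9% of protein coding genes of 180 to 1181 bases. Ndufa3 had the highest estimate of the group, with 186, 137 and 166 CPM in HSALR, against 121, 112 and 126 CPM in WT (422 bases, log2 fold change 0.45 ± 0.15 (SE), edgeR adjusted p = 0.0798). Ndufa10, a subunit related to nucleoside kinases, had the lowest, with 219, 317 and 259 CPM in HSALR, against 287, 313 and 293 CPM in WT (log2 fold change -0.17 ± 0.17 (SE), edgeR adjusted p = 0.512). Its groups overlapped, and it is the longest of the group at 1464 bases. Ndufc1, at 371 bases the shortest transcript of all 38 and the most abundant of the group by TPM, had 145, 127 and 122 CPM in HSALR, against 115, 106 and 107 CPM in WT (log2 fold change 0.27 ± 0.13 (SE), edgeR adjusted p = 0.197). Ndufa8, a twin CHCH protein of the intermembrane space, averaged 103 ± 3.09 CPM in HSALR and 103 ± 1.9 CPM in WT (SD, n = 3 each; 861 bases, 95% interval -0.27 to 0.27 on the log2 scale). X-linked Ndufa1 (419 bases) had a log2 fold change of 0.39 ± 0.13 (SE), edgeR adjusted p = 0.0835. Ndufc2, Ndufs5 and Ndufa11 (525 to 590.4 bases) and Ndufa13, also known as GRIM-19 (1251 bases), had 0.20 to 0.41. The counts of Ndufs5 are shared with a pseudogene.

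The distal membrane arm was the most even group. All 11 of its genes had a positive change on the counts, 10 were separate between groups, 1 was called, and the median was 0.33. Of all tested genes 17.8% were separate upward and 4.28% called higher, and of protein coding genes of 180 to 1181 bases 40.9% and 11.6%. With the share of 7SL and 7SK as covariate 10 were positive, and with the length trend removed 4. On log2(TPM + 0.1) none was positive, where the median of all tested genes was -0.46. The lowest change was that of X-linked Ndufb11, with 227, 199.5 and 187 CPM in HSALR, against 176, 177 and 184 CPM in WT (log2 fold change 0.20 ± 0.14 (SE), edgeR adjusted p = 0.35), which is also the longest transcript of the group at 908 bases. Ndufb8 had 611, 526 and 539.7 CPM in HSALR, against 462, 461 and 472 CPM in WT (677 bases, log2 fold change 0.27 ± 0.15 (SE), edgeR adjusted p = 0.238). Every HSALR value lay above the WT values in both genes. Ndufb1 rested on HSALR library 1, with 246, 156 and 134 CPM in HSALR, against 126, 125 and 134 CPM in WT, so its log2 fold change of 0.48 ± 0.22 (SE) at 642 bases became 0.19 without that library. Ndufb2, Ndufb4, Ndufb5, Ndufb6, Ndufb7, Ndufb9 and Ndufb10 (504 to 729 bases) had log2 fold changes of 0.22 to 0.42, none of them called by edgeR, while DESeq2 called Ndufb5 and Ndufb6 (adjusted p = 0.00792 and 0.0499). Ndufb4 is the member whose groups overlapped, and its reads are shared with a lncRNA and a pseudogene copy.

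The 2 genes outside complex I were not called. Ndufa4 had 743, 548 and 525 CPM in HSALR, against 449, 438 and 467 CPM in WT, with HSALR library 1 far above the others (541 bases, log2 fold change 0.42 ± 0.18 (SE), edgeR adjusted p = 0.134; 0.26 without that library). Ndufa4l2 had 4.28, 1.53 and 1.95 CPM in HSALR, against 1.91, 3.31 and 2.75 CPM in WT, at which depth no change was detectable (894 bases, 95% interval -1.03 to 0.91 on the log2 scale).

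The proportion of core to distal transcripts differed between the groups. The summed counts of the 7 core genes over those of the 11 distal genes were 0.64, 0.864 and 0.773 in HSALR libraries 1, 2 and 3, against 0.997, 1.07 and 0.986 in WT libraries 1, 2 and 3. The ratio was lower in every HSALR library. Core transcripts are longer (median 1033 bases, against 677 bases in the distal arm), and the medians of both groups without the length trend are given below.

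Fold change and transcript length were related among the members. On the counts all 26 members under 800 bases had a positive change, and all 5 of 1300 bases or more (among them Ndufs1, Ndufa10, Ndufa9 and Ndufv1) had a negative one. On log2(TPM + 0.1) those under 800 bases were negative. On that scale the members' median was -0.32, above the median of -0.46 of all tested genes. With the effective length offset 31 members were positive and 7 negative. Over the 38 members Spearman's rho between log2 fold change and length was -0.63, and over 12298 protein coding genes it was -0.25; both are descriptions across genes that share 6 libraries. Of the members 32 fell in the shortest of 8 length classes of protein coding genes, from 180 to 1181 bases. The 1538 genes of that class had a median change of 0.31, with 80.0% positive, 11.6% called higher and 40.9% separate upward. Its 32 members had a median of 0.29, with 30 positive, 2 called and 25 separate upward.

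**Figure D3:**
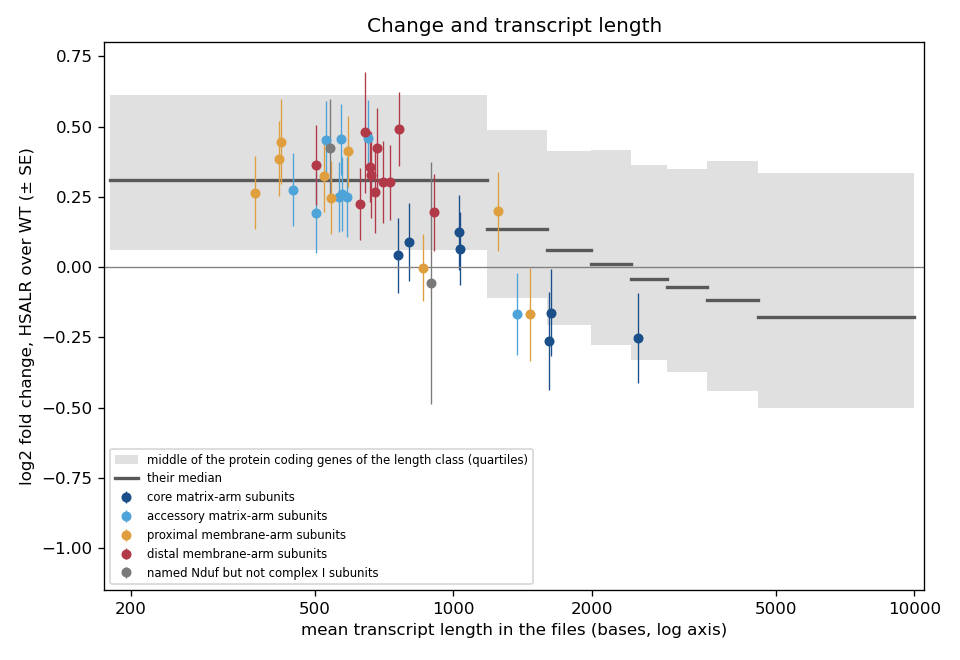
Log2 fold change (HSALR over WT, ± SE) of the 38 members against transcript length (log axis), over the quartiles and medians of protein coding genes in 8 length classes, the last of them cut short on the right. Members under 800 bases lie above 0 on the counts, near the class median of 0.31, and the 5 members of 1300 bases or more lie below 0. On log2(TPM + 0.1) members under 800 bases lie below 0, where the median of all tested genes is -0.46.

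Removing each library's trend on transcript length lowered most of the members' estimates, while that of Ndufs1, the longest, rose from -0.25 to -0.21. The median of the members became -0.09, 10 were positive and 28 negative, and none was called, with the lowest adjusted p at 0.177. The group medians were -0.21 for core, -0.14 for accessory matrix-arm, -0.09 for proximal and -0.03 for distal subunits, so the core median stayed below the distal one. Over the members Spearman's rho between these estimates and transcript length was still -0.24, and the core transcripts are the longer ones. The part of length in the remaining order was not tested. Ndufb3 kept the highest estimate at 0.18 ± 0.12 (SE; adjusted p = 0.358), while Ndufa2 had 0.063. The trend was fitted on all genes, these included, and its cause was not tested.

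**Figure D4:**
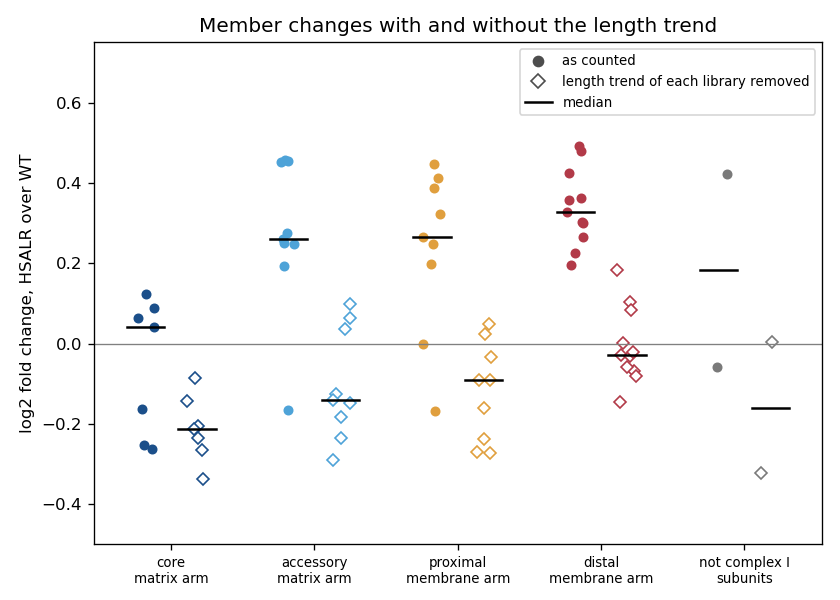
Log2 fold change (HSALR over WT) of each member as counted and after removal of each library's length trend, by place in the complex, with group medians as bars. The medians as counted run from 0.04 (core) to 0.33 (distal), and after removal from -0.21 to -0.03.

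The 7 core subunits of the membrane arm, encoded in mitochondrial DNA, were mostly lower. Of the 6 tested, 4 were called lower in HSALR and none higher. mt-Nd4, a proton-pumping subunit at the distal end, had 266, 288 and 223 CPM in HSALR, against 889, 816 and 813 CPM in WT (log2 fold change -1.70 ± 0.16 (SE), edgeR adjusted p = 0.00239). mt-Nd2, a further pump, had 78.3, 80.8 and 59.5 CPM in HSALR, against 234, 209.6 and 209.8 CPM in WT (log2 fold change -1.58 ± 0.16 (SE), edgeR adjusted p = 0.00278). mt-Nd5 had 209, 232 and 178 CPM in HSALR, against 616, 576 and 596 CPM in WT (log2 fold change -1.53 ± 0.16 (SE), edgeR adjusted p = 0.00283). In all of these the highest HSALR value lay far below the lowest WT value. mt-Nd1, which forms part of the ubiquinone channel, had 578, 639 and 442 CPM in HSALR, against 1209.6, 1047 and 1066 CPM in WT (log2 fold change -1.002 ± 0.18 (SE), edgeR adjusted p = 0.0143), and was not called without HSALR library 3 (adjusted p = 0.0705) or without WT library 1, 2 or 3 (0.0892, 0.0665 and 0.0719).

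The other mitochondrial subunits did not pass the test. mt-Nd3, at 348 bases, had 318, 129.9 and 163 CPM in HSALR, against 149, 168 and 138 CPM in WT, with HSALR library 1 well above the rest (log2 fold change 0.42 ± 0.31 (SE), edgeR adjusted p = 0.38). Its log2 fold change turned to -0.043 without that library and to -0.40 with the share of 7SL and 7SK as covariate, and its counts are not whole in any library. mt-Nd6, which lies on the other strand and overlaps the end of mt-Nd5, had 4.09, 9.84 and 1.48 CPM in HSALR, against 7.21, 9.21 and 8.92 CPM in WT (log2 fold change -0.73 ± 0.57 (SE), edgeR adjusted p = 0.418), and was called lower without HSALR library 2 (-1.65, adjusted p = 0.025). mt-Nd4l was listed at 0 in every library but WT library 3, which had 67 counts, and was not tested. It overlaps mt-Nd4 on the same strand. With the length trend removed the 4 calls stayed, at -1.24 (mt-Nd1), -1.79 (mt-Nd2), -1.82 (mt-Nd4) and -1.57 (mt-Nd5).

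The balance of nuclear and mitochondrial transcripts differed between the groups. Counts of the mt-Nd genes over those of the 38 nuclear members were 0.155, 0.154 and 0.122 in HSALR libraries 1, 2 and 3, against 0.390, 0.355 and 0.356 in WT libraries 1, 2 and 3. The 2 ranges were far apart, also without HSALR library 1.

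**Figure D5:**
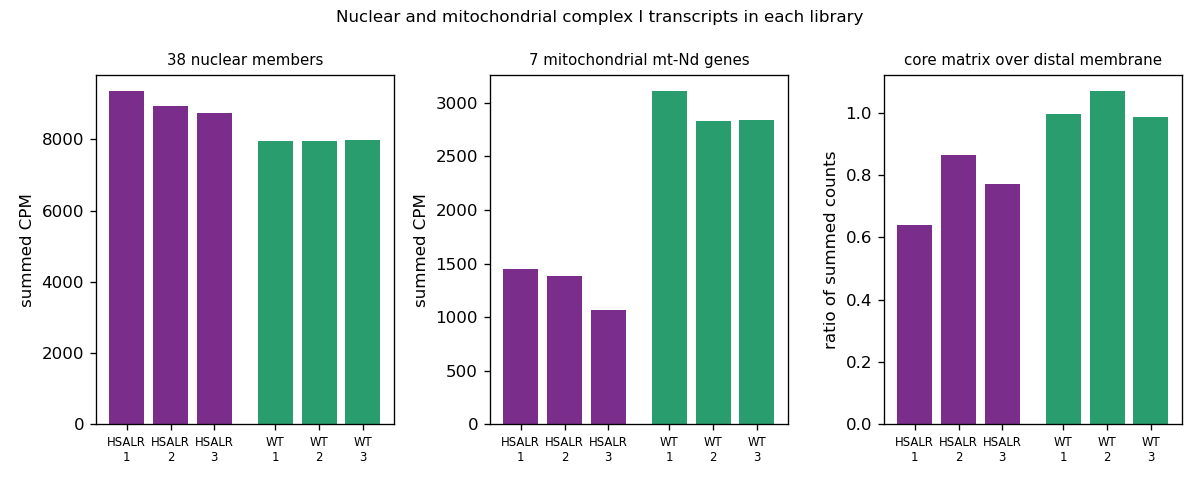
Summed CPM of the 38 nuclear members, summed CPM of the 7 mt-Nd genes and the ratio of core matrix-arm to distal membrane-arm counts, in HSALR libraries 1 to 3 and WT libraries 1 to 3 (bars from 0). The nuclear sums are 8753 to 9345 CPM in HSALR and 7957 to 7976 CPM in WT, and the mt-Nd sums 1067 to 1453 CPM in HSALR and 2826 to 3105 CPM in WT.

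Ndufab1, the acyl carrier protein that is a subunit of both arms but falls outside the naming rule, had 102, 99.2 and 90.4 CPM in HSALR, against 83.6, 92.3 and 90.3 CPM in WT (log2 fold change 0.13 ± 0.13 (SE), edgeR adjusted p = 0.489). Its groups overlapped. Assembly factors, which build the complex and then leave it, were centred near 0. Of 19 tested none was called, 9 were positive and 10 negative, and the median was -0.02. At an unadjusted p below 0.05 there was 1 gene, and DESeq2 also called 0. Dmac1, a distal-arm assembly factor, had 26.7, 25.01 and 26.1 CPM in HSALR, against 19.6, 19.7 and 22.01 CPM in WT (log2 fold change 0.35 ± 0.12 (SE), edgeR adjusted p = 0.0918). The second lowest p was that of Ndufaf8, with 18.6, 15.2 and 17.2 CPM in HSALR, against 15.6, 12.98 and 11.9 CPM in WT (log2 fold change 0.33 ± 0.16 (SE), edgeR adjusted p = 0.184). The assembly factors are longer than the subunits (median 1449 bases, against 661 bases). With the length trend removed 4 assembly factors were positive and 15 negative, and their median was -0.11, against -0.09 for the 38 members. With the share of 7SL and 7SK as covariate 15 were positive and 4 negative.

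Regulators known to act on nuclear respiratory genes were also measured. All 10 had a negative change in the edgeR test, with a median of -0.24 and a median transcript length of 2487 bases. Under the alternatives 7 to 10 were negative. The effective length offset and the share of 7SL and 7SK as covariate each gave 7. Upper-quartile factors and the fit without HSALR library 3 each gave 8. DESeq2 called 2 lower, and the edgeR test called 1 (3 at an unadjusted p below 0.05). Of all tested genes edgeR called 7.48% lower, and 16% were lower at an unadjusted p below 0.05. DESeq2 called 17.9% of all genes, with 8.58% called higher and the rest lower. The change was positive in 52.9% of all tested genes and in 46.5% of protein coding genes of 2424 to 2911 bases. The gene called by edgeR was Ppargc1a, the coactivator PGC-1alpha, which drives mitochondrial gene expression in muscle through the oestrogen-related receptors and other factors. It had 24.5, 25.4 and 18.3 CPM in HSALR, against 44.1, 66.6 and 71.2 CPM in WT, with every HSALR value below the WT values (log2 fold change -1.42 ± 0.21 (SE), edgeR adjusted p = 0.00711, and 0.0527 without HSALR library 3). Esrra, the receptor ERRalpha, had 48.7, 65.1 and 49.2 CPM in HSALR, against 56.7, 57.4 and 62.8 CPM in WT with overlapping groups (edgeR adjusted p = 0.613); it is named here because the letters it binds are searched next, a choice made after its value was seen. Esrrg, the receptor ERRgamma, had 6.66, 5.81 and 2.15 CPM in HSALR, against 7.07, 15.2 and 10.04 CPM in WT, with every HSALR value below the WT values. Its log2 fold change was -1.17 ± 0.43 (SE), not called by edgeR (adjusted p = 0.113) and called lower by DESeq2 (adjusted p = 0.0385).

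The promoters of the members were searched for the letters bound by such regulators, from 250 bases before to 50 after the start of the canonical transcript, on both strands. AAGGTCA, the core of the ERR receptors' site, occurred in 4 of 38 members (Ndufb2, Ndufb4, Ndufs1 and Ndufs5), or 10.5%, and in 4.43% of 21685 promoters of protein coding genes. AAGATGGC, a YY1 site, occurred in 5 members (13.2%) and 2.48% of all promoters, CCGGAAG, an ETS site, in 4 (10.5%) and 10.2%, and GCATGCGC, from the NRF1 site, in 2 (5.26%) and 3.68%. No one of these sets of letters was present in most members. In Ndufb2 and Ndufs5 the ERR letters lie upstream of the start. Their 250 upstream bases (GRCm39) are printed to show where, with the match in capitals, which for Ndufs5 is the reverse complement. The window of Ndufb2 is chr6:39569240-39569489, plus strand, and that of Ndufs5 is chr4:123612003-123612252, minus strand.
Ndufb2: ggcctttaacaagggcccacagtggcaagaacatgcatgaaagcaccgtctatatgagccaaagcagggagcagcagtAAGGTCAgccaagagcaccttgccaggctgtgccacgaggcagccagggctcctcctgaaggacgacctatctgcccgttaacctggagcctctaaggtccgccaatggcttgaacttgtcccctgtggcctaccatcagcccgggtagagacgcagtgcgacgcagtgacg
Ndufs5: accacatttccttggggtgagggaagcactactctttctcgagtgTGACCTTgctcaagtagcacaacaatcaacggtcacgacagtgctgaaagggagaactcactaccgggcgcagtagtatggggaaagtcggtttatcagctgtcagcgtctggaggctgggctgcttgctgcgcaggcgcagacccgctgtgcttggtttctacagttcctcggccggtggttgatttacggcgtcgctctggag

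The 4 genes with the ERR letters did not share a sign. Ndufb2 had 219, 177 and 181 CPM in HSALR, against 154, 141 and 154 CPM in WT (log2 fold change 0.36 ± 0.14 (SE)), and Ndufs5 95.6, 92.5 and 109.5 CPM in HSALR, against 80.3, 78.02 and 79.6 CPM in WT (0.32 ± 0.13 (SE)). The log2 fold change was 0.33 ± 0.15 (SE) for Ndufb4 and -0.25 ± 0.16 (SE) for Ndufs1. None of them was called, and a match of letters is not evidence of binding.

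Leaving out HSALR library 1, the one with the highest 7SL and 7SK share, left the members' median positive. Their median was then 0.22, with 32 positive and 6 negative, and 5 were called higher (Ndufb3, Ndufa2, Ndufs4, Ndufa7 and Ndufb5), in a fit that called 14.4% of all genes, with 5.94% called higher. Each HSALR library on its own lay above the WT mean in 32, 33 and 31 of the 38 members for libraries 1, 2 and 3, with median differences of 0.37, 0.19 and 0.22 on the log2 CPM scale. With the share of 7SL and 7SK as covariate the median was 0.16 and none was called. Without HSALR library 2, 11 members were called higher, in a fit that called 23.6% of all genes, with 10.6% called higher.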

How the data were processed

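Total RNA-seq libraries of quadriceps muscle (TRIzol extraction, stranded preparation with removal of ribosomal RNA) were taken from 3 HSALR and 3 WT samples, grouped by genotype as titled. The authors deposited one RSEM table per library. RSEM 1.3.1, Bowtie2 and GRCm39 are named in the submitters' processing notes, and no source used here gives the annotation release. The expected counts deposited by the authors divide reads that match several genes between them; TPM deposited by the authors corrects them for length; the other columns used (length and effective length) were also deposited by the authors as given by RSEM. The FPKM column was not used. The study's methods cover small RNA libraries, so no test could be taken from them.

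Expected counts were rounded. Genes kept by filterByExpr were normalised by TMM and tested with edgeR 4.0.16 (robust quasi-likelihood F test, limma 3.58.1, R 4.3.3). CPM values use TMM-scaled library sizes. SEs are the absolute log2 fold change over the square root of F. Alternatives were limma-trend on log2(TPM + 0.1) and log2(TPM + 1), limma-voom, DESeq2 1.42.0, other factors, filters, library sizes and gene sets, length corrections (an effective length offset; each library's loess trend on log transcript length, span 0.5), the share of 7SL and 7SK as covariate, a replicate block and each library left out in turn. Symbols, coordinates and sequences came from GENCODE M39 on GRCm39, matched for 53400 of 53947 identifiers. The edgeR procedure was tested on simulated data. Libraries of a group differed by more than sampling noise in all 6 pairs. Whole expected counts (within 0.005) made up 92.5% to 93.5% of each library's values. Limits from counts cover counting error only. The members, gene lists and tests were chosen with earlier results of these data known. Values per library are given for called members and for the members with the highest change, lowest change and highest TPM in each group by place, except that 1 core member enters the counts, sums and medians but is not reported here on its own.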

Additional observations from a re-analysis of the deposited data

How the results depend on the processing

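The median log2 fold change of the 38 members was 0.26, stayed positive between 0.22 and 0.29 with each library left out, and reversed to -0.32 on log2(TPM + 0.1), -0.32 on log2(TPM + 1) and -0.0898 with the length trend removed. On the 2 TPM scales the median of all tested genes was -0.46 and -0.28, Ndufa2 was at -0.12 on both, and Ndufb3 at -0.077 and -0.075. The 2 calls among members became 8 with DESeq2, 5 with upper-quartile factors, and 0 on either TPM scale, with no filter, with the effective length offset, with the length trend removed, with the share of 7SL and 7SK as covariate and with the replicate block; leaving out each library gave 0 to 11. Of the single libraries, leaving out HSALR library 3 or any WT library gave 0, HSALR library 1 gave 5 and HSALR library 2 gave 11. No member was called lower, and no assembly factor was called, under any alternative, and of the mt-Nd genes 3 to 5 were called lower. All genes called numbered 1597, and 2428 with DESeq2, 133 and 211 on the TPM scales with pseudocounts 0.1 and 1, 705 with the effective length offset, 941 with the length trend removed, 935 with the share as a covariate, 799 with the replicate block and 166 to 3294 with each library left out. The cause of these differences was not tested. Over single genes and alternatives, 1258 of 1480 values kept their direction and side of the threshold, and 174 had the other sign. Replicate numbers are shared between the groups. The correlations of same-numbered deviations were -0.02, -0.11 and 0.26, and those of differently numbered ones ran from -0.18 to 0.19. The labels do not say whether samples of the same number belong together, and so few correlations cannot decide it. At 11468959 to 15023710 counts per library, Ndufa4l2 and mt-Nd4l were too shallow for differences of the members' size. For such differences mt-Nd6 varied too widely, with 43, 122 and 22 counts in HSALR libraries 1, 2 and 3 (SE of the log2 fold change 0.57).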

Other observations

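Nuclear subunits of complexes II to V, the rest of the respiratory chain and ATP synthase, were also tested. Of 41 genes 4 were called higher in HSALR and none lower (at an unadjusted p below 0.05, 19 higher and 1 lower), 33 were positive, and the median log2 fold change was 0.28, close to that of the 38 members. Of all tested genes 4.28% were called higher and 52.9% were positive, with 15.8% higher and 16% lower at an unadjusted p below 0.05. Of protein coding genes of 180 to 1181 bases 11.6% were called higher and 80.0% were positive, near the shares in this list. Their median transcript length of 630 bases was also close to that of the members (661 bases), and with the length trend removed their median was -0.10.

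For 3 members with copies elsewhere, the counts of gene and copies were added. Ndufb4 with Ndufb4b and Ndufb4c had 257, 192 and 187 CPM in HSALR libraries 1, 2 and 3, against 178, 157 and 172 CPM in WT libraries 1, 2 and 3. Ndufa12 with its pseudogene had 316, 329 and 348 CPM in HSALR, against 278, 276 and 281 CPM in WT. Ndufs5 with its pseudogene had 140.3, 139 and 151 CPM in HSALR, against 120, 117 and 118 CPM in WT. None of the 3 sums overlapped between groups, although Ndufb4 alone did. Counts were whole in 16.7% of libraries for Ndufb8 and Ndufb9, 33.3% for Ndufc1, 50% for Ndufb2 and 83.3% for Ndufs3. Some of their reads are thus divided with other genes too, and no copies were added for them.

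The abundance-weighted transcript length of a gene differs between libraries when its isoforms do. It was lower in every HSALR library than in every WT library for 4 of 38 members and higher for 1, where all tested genes gave 6.87% and 3.8%. The largest such difference was that of Ndufs4, with 645, 644 and 623 bases in HSALR libraries 1, 2 and 3, against 671, 677 and 658 bases in WT libraries 1, 2 and 3 (-4.7%), while the others moved by under 3 bases.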
